A study of Mus musculus with 8 samples.

Results

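Heat shock proteins and cytosolic chaperones were followed in mouse liver through 10 genes, namely Hsph1, Hsp90aa1, Hsp90ab1, Hspa8, Hspb1, Hspd1, Hspe1, Dnaja1, Dnajb1 and Hsf1. They were chosen by name, as all probe sets that the annotation of the array pairs with exactly 1 of these genes. That gave 18 of 22690 probe sets, and these measure 8 of the 10 genes. Hsp90ab1 and Hsf1 had no probe set of this kind and were not analysed here. The livers came from female mice of 4 weeks on a C57BL/6J background, taken late in the morning, 4 of them wild type (WT) and 4 TrxR1/Gsr-null. The mutant livers are labelled as null for the cytosolic thioredoxin reductase TrxR1 (gene Txnrd1) and for glutathione reductase (gene Gsr), without the alleles or the cells in which they are lost. Total RNA of each liver was hybridised to 1 Affymetrix array, and the labels call the arrays of a group biological replicates. Every value below is a log2 expression value of a probe set, and a difference is the mean of the TrxR1/Gsr-null livers minus the mean of the WT livers on that scale. A gene was called when its limma p, adjusted by the Benjamini-Hochberg method over all 7534 genes tested, was below 0.05.

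Chaperones bind proteins that are unfolded or being folded and keep them from aggregating. Hsp70 proteins such as Hspa8 take substrates from J proteins such as Dnaja1 and Dnajb1, which stimulate their ATPase, and let them go when an exchange factor such as Hsph1, an Hsp110 protein, replaces the nucleotide. Hsp90aa1 is the stress-inducible cytosolic Hsp90, which matures kinases and steroid receptors, Hspb1 is a small heat shock protein that holds unfolded proteins without ATP, and Hspd1 and Hspe1 form the chaperonin of mitochondria. The transcription factor Hsf1 is held back by chaperones in unstressed cells, and when unfolded or oxidised proteins accumulate it forms trimers that bind inverted repeats of the letters GAA upstream of many of these genes. The thioredoxin and glutathione systems keep cytosolic thiols reduced, also in hepatocytes, which make up most of the liver's mass.

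Promoter sequence from RefSeq (GRCm38.p6), reaching from 250 bases before a gene's start site to 50 after it, was held for 6 of the 10 genes, in 11 windows. They were searched for a pair of facing repeats, GAANNTTC or TTCNNGAA, each of which reads the same on both strands, and for the runs of alternating repeats TTCNNGAANNTTC and GAANNTTCNNGAA, which contain the pairs and are each other's reverse complement. Of the 11 windows 6 held a pair, and 4 held one of the longer runs, against 15.1% and 0.603% of 32851 windows of that length. The 11 windows are not independent, since those of Hsph1 overlap each other, as do 2 of the 3 of Dnaja1, and 1 of those of Hspd1 overlaps that of Hspe1. The sequences below are those of the 3 called genes for which a window was held, and of Hspe1, which has the longest run and was not called. Capitals mark the pairs and runs, and each sequence ends 30 bases after the start site.
Hsph1: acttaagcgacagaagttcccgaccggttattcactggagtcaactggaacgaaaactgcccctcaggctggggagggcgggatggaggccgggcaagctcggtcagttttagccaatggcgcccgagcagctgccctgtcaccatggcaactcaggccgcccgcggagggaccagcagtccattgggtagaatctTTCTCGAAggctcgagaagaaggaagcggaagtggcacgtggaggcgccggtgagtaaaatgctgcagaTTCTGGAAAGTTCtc
Hspb1: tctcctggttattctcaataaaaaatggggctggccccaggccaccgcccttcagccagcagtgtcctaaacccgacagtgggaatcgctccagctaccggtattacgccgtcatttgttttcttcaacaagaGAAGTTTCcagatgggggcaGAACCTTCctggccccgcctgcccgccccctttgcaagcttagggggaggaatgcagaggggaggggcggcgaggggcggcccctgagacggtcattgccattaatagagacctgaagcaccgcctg
Dnaja1: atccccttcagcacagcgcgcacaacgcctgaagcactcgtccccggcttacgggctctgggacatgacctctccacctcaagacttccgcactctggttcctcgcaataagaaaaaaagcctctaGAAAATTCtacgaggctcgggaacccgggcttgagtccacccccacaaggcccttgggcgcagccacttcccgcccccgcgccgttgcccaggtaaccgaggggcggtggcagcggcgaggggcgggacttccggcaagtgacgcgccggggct
Hspe1: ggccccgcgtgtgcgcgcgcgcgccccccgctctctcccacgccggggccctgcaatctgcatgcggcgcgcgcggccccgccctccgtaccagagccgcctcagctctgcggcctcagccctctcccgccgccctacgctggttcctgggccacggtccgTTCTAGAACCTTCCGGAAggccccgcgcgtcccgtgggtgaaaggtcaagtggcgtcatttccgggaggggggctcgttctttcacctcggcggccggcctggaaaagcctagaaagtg
The Hsph1 sequence is chr5:149636286-149636565 on the minus strand, with TTCTCGAA at 54 to 47 bases before the start site and TTCTGGAAAGTTC at 15 to 27 after it. That of Hspb1 is chr5:135887669-135887948 on the plus strand, with GAAGTTTC at 117 to 110 and GAACCTTC at 97 to 90 bases before the start. That of Dnaja1 is chr4:40722218-40722497 on the plus strand, with GAAAATTC at 124 to 117 bases before the start, and the other 2 windows of the gene held no match. That of Hspe1 is chr1:55087898-55088177 on the plus strand, with the run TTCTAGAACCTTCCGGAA at 89 to 72 bases before the start. The same bases, read on the other strand, lie in a window of Hspd1, whose gene runs the opposite way. Neither window of Dnajb1 held a pair. A match is only a run of letters, and binding was not measured.

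Of the targeted genes, Gsr was lower in every TrxR1/Gsr-null liver, at 7.16 ± 0.09 (SD, n = 4) in WT and 6.01 ± 0.22 (SD, n = 4) in TrxR1/Gsr-null livers. The brightest probe set of Txnrd1 went the other way, from 9.82 ± 0.17 to 11.92 ± 0.19 (SD, n = 4 each), and the other 2 had group means of 1.76 to 2.12, near the floor of the array. Which part of the gene was deleted is not given in the labels, so Txnrd1 does not check the genotype. All 10 hepatocyte markers were well measured, with a mean level of 12.79 to 13.05 in WT and 12.26 to 12.79 in TrxR1/Gsr-null livers. None of them was called, and all were lower on average in the TrxR1/Gsr-null livers (median difference -0.33). WT replicates 3 and 4 had narrower distributions of values than the other arrays (interquartile ranges 3.97 and 3.74 against 4.31 to 4.44 log2 units), and calls lost without both are given below. The gap between 3′ and 5′ probe sets of Actb, a sign of RNA integrity, was 1.498 and 1.57 log2 units in these arrays, 1.76 in TrxR1/Gsr-null replicate 3 and 1.01 to 1.17 in the others. That of Gapdh did not set these 3 arrays apart, and was -0.70 in TrxR1/Gsr-null replicate 4 against -0.45 to -0.23 in the others. The part of RNA integrity in the results was not tested. Arrays have no counting depth, and precision is set by having 4 arrays per group.

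Cytosolic chaperones of 4 classes were higher in the TrxR1/Gsr-null livers than in WT. Hsph1, Hspb1, Hsp90aa1 and Dnaja1 rose, by 6.11-, 7.14-, 2.70- and 1.65-fold, that of Hspb1 from WT values near background. Hspa8, Hspe1, Dnajb1 and Hspd1 were not called, with ratios of 1.87, 1.35, 1.97 and 1.03. Of the 8 genes, all of which passed the filter on low values, 4 were called higher and 0 lower, against 4.47% of all genes tested called higher and 2.15% called lower (6.62% in either direction). In 6 of the 8 every TrxR1/Gsr-null liver lay above every WT liver, against 10.7% of all genes (16.6% without overlap in either direction). The median difference of the 8 genes was 0.94, and that of all genes tested was 0.10. RNA of whole liver was measured, so that a change in the cells present and a change of RNA per cell cannot be told apart.

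**Figure D1:**
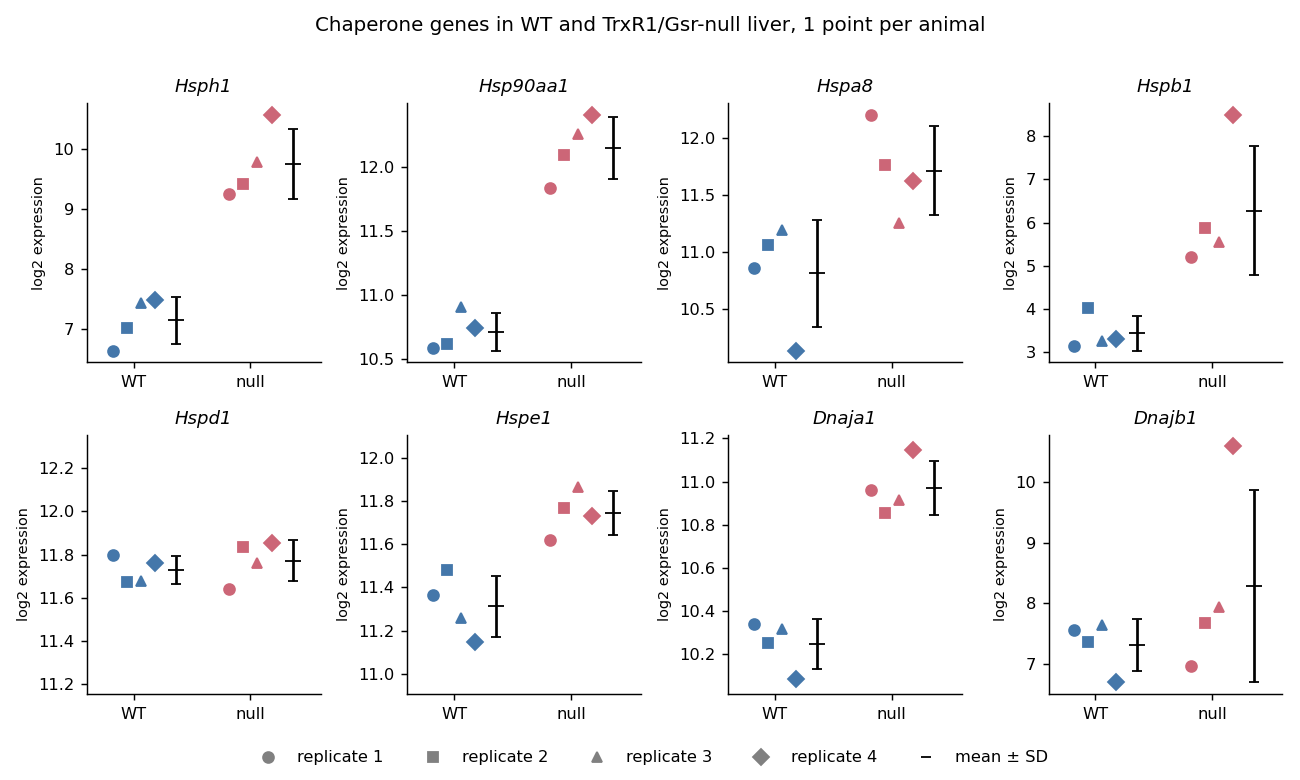
Log2 expression of the 8 measured genes (vertical axis, a separate scale for each gene) in 4 WT livers (blue) and 4 TrxR1/Gsr-null livers (red), 1 point per animal with the replicate number as its shape and the mean ± SD as a black bar. The groups are apart in Hsph1, Hsp90aa1, Hspa8, Hspb1, Hspe1 and Dnaja1, and they overlap in Hspd1 and Dnajb1.

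Hsph1, the exchange factor of Hsp70, was at 6.64, 7.02, 7.42 and 7.48 in WT replicates 1 to 4. In TrxR1/Gsr-null replicates 1 to 4 it was at 9.25, 9.41, 9.78 and 10.57. All 4 mutant livers were far above all 4 WT livers, and replicate 4 was the highest. The difference was 2.61 ± 0.31 (SE, 95% interval 1.92 to 3.30), with an adjusted p of 0.000931, rank 51 of 7534 genes by p. Its second probe set went from 5.05 ± 0.95 to 8.33 ± 0.27 (SD, n = 4 each), 9.75-fold. The call held in all 21 alternatives in which the gene had a value, with differences of 2.34 to 2.95.

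Hspa8, the Hsp70 that cells make without stress, was at 10.86, 11.06, 11.20 and 10.13 in the WT livers and at 12.21, 11.77, 11.26 and 11.63 in the TrxR1/Gsr-null livers. The groups did not overlap, but TrxR1/Gsr-null replicate 3 lay only 0.06 above WT replicate 3, and WT replicate 4 was well below the other WT livers. The difference of 0.90 ± 0.28 (SE, 95% interval 0.28 to 1.52) was not called (adjusted p = 0.0864). Of its other 3 probe sets, 2 that can match several transcripts were 0.80 and 0.69 higher without overlap, and 1 with WT mean 6.39 differed by -0.02 with an interval of -1.56 to 1.52. Of 22 alternatives 4 called the gene. It was called with array weights (adjusted p = 0.0178) and with replicates 1 and 2 against 3 and 4 as a block (adjusted p = 0.0401). The trend and robust options of eBayes also called it (adjusted p = 0.0499), as did the fit within replicates 1 and 2 (adjusted p = 0.0447). Hspa8 was not called with any single array left out (adjusted p 0.0750 to 0.204).

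Hsp90aa1, the inducible Hsp90, was at 10.59, 10.62, 10.91 and 10.75 in the WT livers and at 11.84, 12.09, 12.26 and 12.41 in the TrxR1/Gsr-null livers. The animals of each group were close together, and the gap between the groups was wider than the range within either. The difference was 1.43 ± 0.18 (SE, 95% interval 1.02 to 1.84; adjusted p = 0.00158). Both other probe sets of the gene gave larger ratios, 3.73-fold and 5.17-fold, again without overlap. The call held in all 22 alternatives, with adjusted p up to 0.0425.

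Of the J proteins, Dnaja1 was called and Dnajb1 was not. Dnaja1, a J protein of the cytosol, was at 10.34, 10.25, 10.32 and 10.09 in the WT livers and at 10.96, 10.85, 10.91 and 11.15 in the TrxR1/Gsr-null livers. Both groups were narrow, and each mutant liver exceeded all WT livers. The difference of 0.72 ± 0.16 (SE, 95% interval 0.36 to 1.08) had an adjusted p of 0.0278. This call was lost without WT replicate 2, 3 or 4 or TrxR1/Gsr-null replicate 1, 2 or 4, each in turn (adjusted p 0.0521 to 0.0788), while the difference stayed between 0.66 and 0.76. The second probe set of Dnaja1 was 0.98 higher with overlapping groups. RefSeq lists 1 pseudogene of Dnaja1 by symbol, and a probe set cannot separate near-identical copies.

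Dnajb1, a strongly heat-inducible J protein, was at 7.55, 7.36, 7.64 and 6.70 in the WT livers. In the TrxR1/Gsr-null livers it was at 6.97, 7.67, 7.93 and 10.59. Replicate 4 stood far above all others, replicate 1 lay within the WT range, and replicates 2 and 3 were just above it. The difference of 0.98 ± 0.65 (SE, 95% interval -0.46 to 2.42) was not called (adjusted p = 0.405), and it was 0.21, a ratio of 1.16, without TrxR1/Gsr-null replicate 4. The second probe set of the gene was at 5.51, 5.28, 5.49 and 4.03 in WT and at 6.03, 6.08, 6.51 and 7.68 in TrxR1/Gsr-null livers, apart between the groups and 2.83-fold higher, but it was not called either (adjusted p = 0.112 over all 22626 probe sets).

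Hspb1, the small heat shock protein also known as Hsp25 in mice, was at 3.16, 4.04, 3.26 and 3.32 in the WT livers and at 5.20, 5.88, 5.54 and 8.49 in the TrxR1/Gsr-null livers. Of the WT values 3 lay below 3.38, the limit under which the lowest 40% of genes fall, so the gene was near background in WT liver and measurable in every mutant liver. Replicate 4 was again the highest of the mutant livers by a wide margin. The difference was 2.84 ± 0.61 (SE, 95% interval 1.47 to 4.20; adjusted p = 0.0229), a fold that rests on WT values near background. Without TrxR1/Gsr-null replicate 4 the difference was 2.10, a 4.28-fold rise with an adjusted p of 0.00359. The call was lost without WT replicate 3 (adjusted p = 0.0656) or WT replicate 4 (adjusted p = 0.0523). The second probe set gave 7.21-fold.

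Neither gene of the mitochondrial chaperonin was called. Hspd1, its barrel, was at 11.80, 11.67, 11.68 and 11.76 in the WT livers and at 11.64, 11.84, 11.76 and 11.85 in the TrxR1/Gsr-null livers. The groups overlapped, and the difference was 0.04 ± 0.16 (SE) with a 95% interval of -0.30 to 0.39, which leaves room for a change of modest size. Hspe1, its lid, was at 11.36, 11.48, 11.26 and 11.15 in the WT livers and at 11.62, 11.77, 11.87 and 11.73 in the TrxR1/Gsr-null livers. All mutant livers lay above all WT livers by a small gap, and the difference of 0.43 ± 0.16 (SE, 95% interval 0.07 to 0.80) was not called (adjusted p = 0.147).

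Hspd1 and Hspe1 are neighbours that run in opposite directions, and their promoters share the run of repeats given above. Within an array, the value of Hspe1 less that of Hspd1 was between -0.61 and -0.19 in WT livers and between -0.12 and 0.11 in TrxR1/Gsr-null livers. This offset was 0.39 higher in the mutant group (two-sided exact permutation test, p = 0.0286, the smallest that 4 against 4 can give), a comparison chosen after the values were seen. It was higher in 4 of 4 same-numbered pairs, by 0.13 to 0.53, and exact sign flips within the pairs gave p = 0.125, the smallest that 4 pairs allow, so that design cannot reach 0.05. The second probe set of Hspe1 was 0.71 higher with overlap. RefSeq lists 5 pseudogenes of Hspd1 and 6 of Hspe1 by symbol, so signal from copies of these genes cannot be told apart from their own.

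Over all probe sets, 17 of the 18 had a higher mean in the TrxR1/Gsr-null livers, a share that was not counted over the whole array. Of the 18, 13 were higher without overlap, against 6.83% of all probe sets that are not controls. In a fit over all 22626 probe sets that are not controls, without a filter on low values, 8 of the 18 were called higher, against 2.09% of all. They were both of Hsph1, both of Hspb1, all 3 of Hsp90aa1 and 1 of the 2 of Dnaja1. Probe sets of a gene gave differences of unequal size, as in Hsp90aa1, where they ran from 1.43 to 2.37. Those of the called genes had the same direction.

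**Figure D2:**
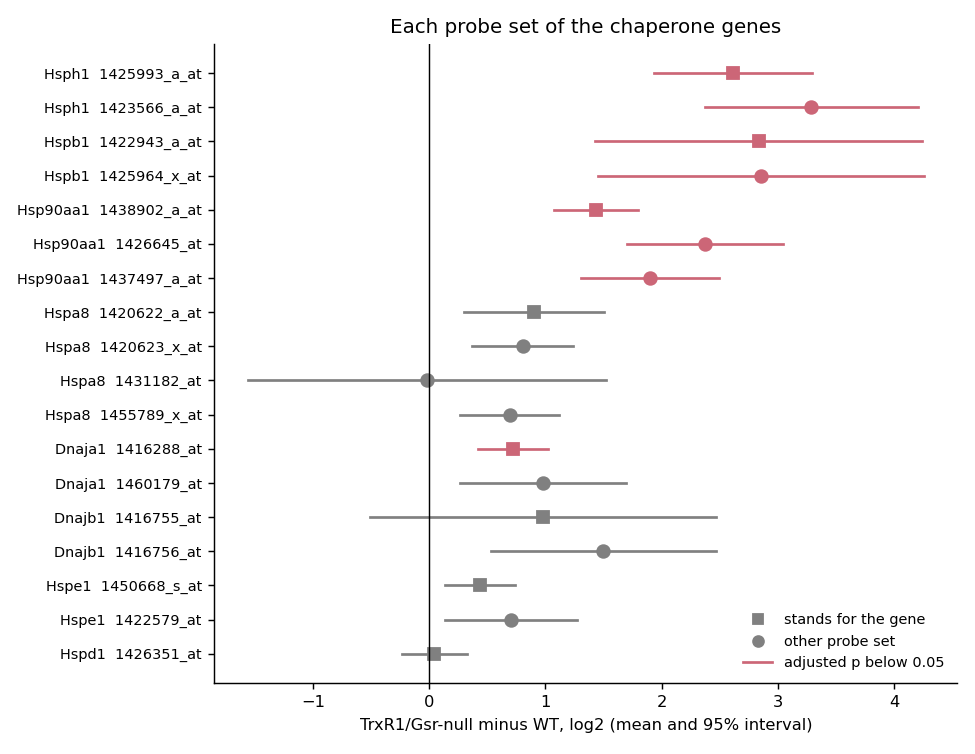
Difference between TrxR1/Gsr-null and WT livers (horizontal axis, log2 units) for each of the 18 probe sets, as the mean with its 95% interval from the fit over all 22626 probe sets. Squares stand for the gene in the gene-level fit, and red marks an adjusted p below 0.05, which 8 probe sets reached.

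The 4 TrxR1/Gsr-null livers were not alike in their chaperone levels. Replicate 4 was the highest of the 8 arrays in 6 of the 8 genes and in 13 of the 18 probe sets, shares that were not counted over all genes. In Hspd1, 1 of the 6, it was at 11.85 against 11.84 in replicate 2. Its excess over the mean of the other 3 mutant livers was 3.07 in Dnajb1, 2.95 in Hspb1 and 1.09 in Hsph1, and of 7534 genes only 4, 6 and 113 had a larger one. In Hsp90aa1 and Dnaja1 the excess was 0.34 and 0.24, and 18.6% and 26.3% of all genes tested had a larger one. In Hspd1, Hspe1 and Hspa8 it was 0.11, -0.02 and -0.12, and 38.9%, 52.4% and 62.9% had a larger one. Replicate 4 thus stood out in Dnajb1, Hspb1 and Hsph1, while each of the other 3 mutant livers was also above all WT livers in Hsph1, Hspb1, Hsp90aa1, Hspa8, Hspe1 and Dnaja1.

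Some other stress genes were also highest in that liver. Hspa1b, the inducible Hsp70, was at 7.51, 7.90, 8.41 and 9.12 in the WT livers and at 9.01, 8.93, 8.67 and 11.95 in the TrxR1/Gsr-null livers. The groups overlapped and the difference of 1.41, a ratio of 2.65, was not called (adjusted p = 0.244). Without TrxR1/Gsr-null replicate 4 it was 0.64, a ratio of 1.56. Within replicates 1 and 2, a split added after the data were seen, it was 1.27 and called (adjusted p = 0.0213). That was the only 1 of 22 alternatives in which Hspa1b was called. The other probe sets of Hspa1b gave larger ratios, 5.39-fold and 5.08-fold, with overlapping groups. Neither was called in the fit over all probe sets that are not controls (adjusted p = 0.189 for each). Replicate 4 was at 10.43 and 11.34 in them, against at most 7.41 and 8.31 in the other mutant livers. Hspa1a, a near-identical copy of Hspa1b, did not pass the filter. It was 2.35-fold higher without overlap, and was not called in that fit either (adjusted p = 0.137). Its WT values, 1.79 to 2.32, lay below the low-value limit of 3.38. Among immediate early genes, which respond within minutes to stress and tissue handling, Jun and Atf3 exceeded the mean of the other mutant livers by 2.47 and 2.48 in replicate 4, and the other 6 tested by 0.35 (Junb) to 1.56 (Zfp36). All WT values of Atf3, 2.55 to 3.23, lay below the low-value limit of 3.38. Atf3 thus passed the filter only through its TrxR1/Gsr-null values. Egr1 was not highest there, at 9.35 against 9.93 in replicate 2 of that group. The list of immediate early genes had 0 of 8 called, a median difference of -0.78, and a mean level of 6.11 to 7.81 in WT and 5.60 to 7.09 in TrxR1/Gsr-null livers, highest there in replicate 4. The part of handling in the values of this liver was not tested.

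**Figure D3:**
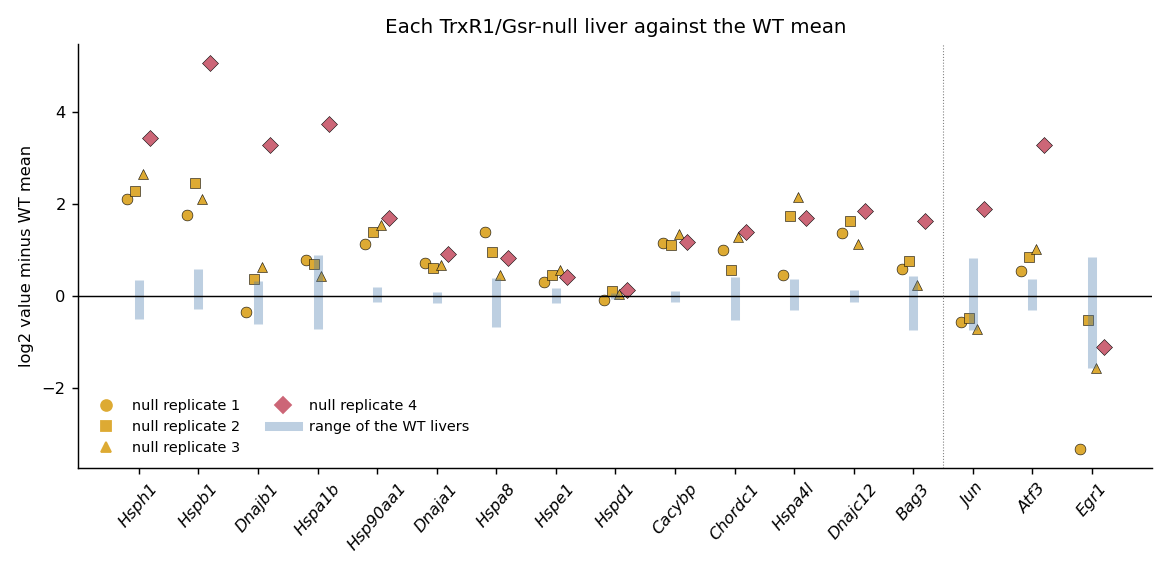
Log2 value of each TrxR1/Gsr-null liver minus the WT mean (vertical axis) for the chaperone genes and, right of the dotted line, the immediate early genes Jun, Atf3 and Egr1; blue bars give the range of the WT livers about their mean. Replicate 4 (red diamonds) stands apart in Hspb1, Dnajb1, Hspa1b, Jun and Atf3 but not in Hsp90aa1, Dnaja1, Hspa8, Hspe1, Hspd1 or Egr1.

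The genes that work with these chaperones were taken from lists of 93 genes, of which 84 had a probe set and 72 passed the filter. Of the 72, 4 were called higher (5.56%) and 0 lower, with a median difference of 0.25. Higher means were found for 56 of the 72. The share of all genes tested with a higher mean was not counted, and their median difference was 0.10. In 11 of the 72 the groups did not overlap, in either direction, a pattern found in 16.6% of all genes. The 4 called genes were Hspa4l, Cacybp, Chordc1 and Dnajc12. The share called higher was near that of all genes tested, 4.47%.

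Hspa4l, a further Hsp110 protein, was at 4.32, 4.73, 4.34 and 4.07 in the WT livers and at 4.81, 6.09, 6.50 and 6.05 in the TrxR1/Gsr-null livers. Replicate 1 lay just above the WT range and the others well above it, for a 2.82-fold rise (adjusted p = 0.0270). It was the only 1 of 4 tested genes of its list to be called, and the call was lost with WT replicates 3 and 4 both left out (adjusted p = 0.129) and within replicates 1 and 2 (adjusted p = 0.225).

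Among 17 Hsp90 cochaperones 2 were called. Cacybp, which links Siah ubiquitin ligases to other proteins and binds Hsp90, was at 8.45, 8.66, 8.64 and 8.42 in WT and at 9.69, 9.64, 9.88 and 9.71 in TrxR1/Gsr-null livers. These are narrow groups far apart, with a 2.28-fold rise (adjusted p = 0.00211). Chordc1, an Hsp90-binding protein with zinc-binding CHORD domains, was at 7.82, 7.52, 8.43 and 8.36 in WT and at 9.03, 8.60, 9.32 and 9.42 in TrxR1/Gsr-null livers, a 2.09-fold rise (adjusted p = 0.0411). The groups of Chordc1 were close but did not overlap. Its call was lost when low-value genes were kept (adjusted p = 0.0543) or when the deposited values were quantile-normalized (adjusted p = 0.0722). Centring each array on its median also lost it (adjusted p = 0.0702). Stip1, which bridges Hsp70 and Hsp90, and Ahsa1, which activates the ATPase of Hsp90, differed by 0.73 and 0.59 and were not called (adjusted p = 0.0633 and 0.167).

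Of 14 other J proteins 1 was called. Dnajc12, a J protein that binds the aromatic amino acid hydroxylases, was at 6.88, 6.68, 6.95 and 6.77 in WT and at 8.19, 8.44, 7.95 and 8.67 in TrxR1/Gsr-null livers. Every mutant liver was above the WT livers by a full log2 unit or more, a 2.81-fold rise with an adjusted p of 0.00178. Dnaja2 and Dnajb4 differed by 0.77 and 0.67 and were not called (adjusted p = 0.0673 and 0.170). The calls of Cacybp and Dnajc12 held with each array left out. Those of Chordc1 and Hspa4l held with 3 of the 8 arrays left out and were lost with the other 5, which left 2 of the 4 genes called without TrxR1/Gsr-null replicate 3 or without replicate 4 of that group.

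None of 7 Hsp70 exchange factors and Hip was called. Bag1 differed by 0.31 and Bag3, which also guides clients to autophagy, by 0.81 (adjusted p = 0.471 and 0.187), and in Bag3 replicate 4 exceeded the mean of the other mutant livers by 1.10. St13, the gene of Hip, was 0.65 higher without overlap (adjusted p = 0.113). The small heat shock proteins Cryab and Hspb8 differed by 0.15 and 0.41 and were not called. Of 13 genes of the cytosolic chaperonin TRiC and its helper prefoldin 0 were called by limma, with 3 at an unadjusted p below 0.05 in either direction. Tcp1 and Cct2 differed by 0.15 and 0.45 with overlap (adjusted p = 0.690 and 0.431). Cct6a of TRiC and Vbp1 of prefoldin were 0.65 and 0.76 higher without overlap (adjusted p = 0.0594 and 0.0960).

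The mitochondrial chaperones and proteases were near the median of all genes. Of 12 tested genes 0 were called by limma, with 0 at an unadjusted p below 0.05, and the median difference was 0.10. Hspa9, the Hsp70 of mitochondria, differed by 0.22 and Trap1, its Hsp90, by -0.17, both uncalled (adjusted p = 0.599 and 0.687). Hsf2 and Hsbp1, a further heat shock factor and a protein that binds Hsf1, differed by -0.27 and 0.18 (adjusted p = 0.778 and 0.639). Of 12 genes tested from a list of targets known to be induced by Hsf1, 3 were called higher, against 4.47% of all genes. They were Cacybp and the less stable Chordc1 and Hspa4l, all already counted among the other chaperone genes above. Of the 12, 11 had a higher mean, and the median difference was 0.70, against 0.10 for all genes tested. The list shares 13 of its 16 genes with the other lists and was chosen with earlier results of these data known. Its count is therefore no separate evidence, and a part of Hsf1 was not tested.

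**Figure D4:**
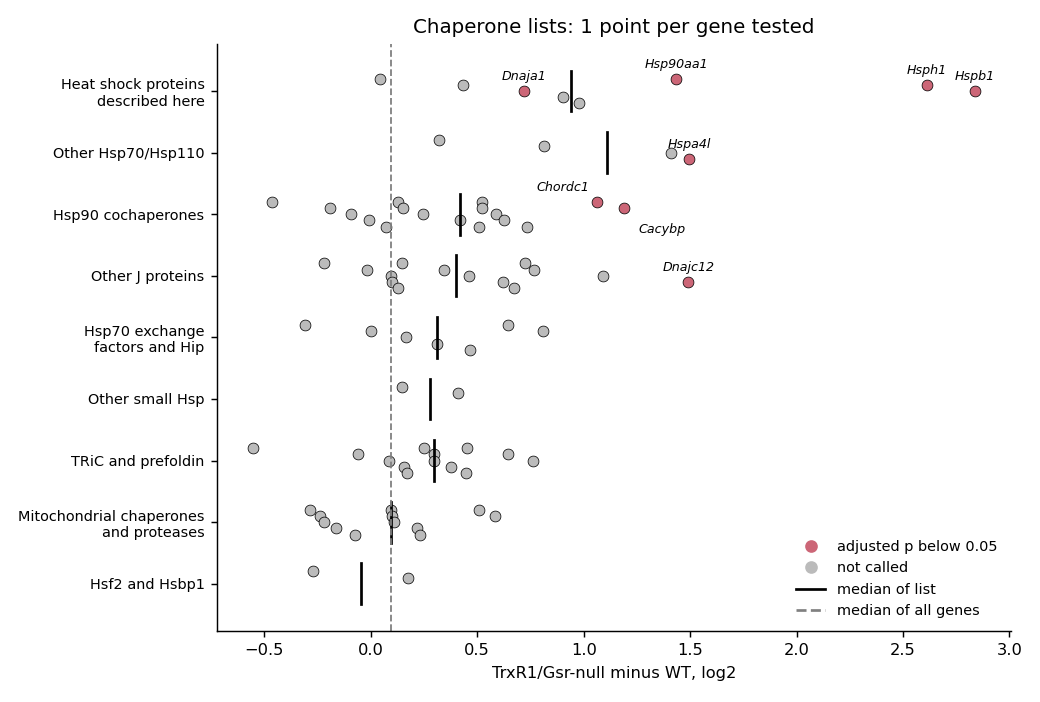
Difference between TrxR1/Gsr-null and WT livers (horizontal axis, log2 units) of each tested gene by list, red where the adjusted p was below 0.05; black bars are list medians and the dashed line is the median of all 7534 genes, 0.10. The heat shock proteins described here have 4 called genes and a median of 0.94, and the lists of mitochondrial chaperones, TRiC and exchange factors have none called.

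Markers of other liver cells were compared beside these results. None of the 10 tested markers of Kupffer cells was called, nor any of 8 of endothelium, 7 of stellate cells, 2 of lymphocytes and 3 of erythroid cells. Kupffer markers had a mean level of 7.99 to 8.52 in WT and 7.65 to 8.16 in TrxR1/Gsr-null livers. Their median difference was -0.18, and 3 of 10 had an unadjusted limma p below 0.05. Endothelial markers were at 6.90 to 7.42 and 6.77 to 7.06, with a median difference of -0.46 and 2 of 8 at an unadjusted limma p below 0.05. Stellate markers were at 7.53 to 8.04 and 7.08 to 7.82, with a median difference of -0.31 and 1 of 7 at such a p. Of 2 tested bile duct markers Epcam was called higher, at 2.93 ± 0.33 in WT and 3.87 ± 0.34 in TrxR1/Gsr-null livers (SD, n = 4 each), and Sox9 was not called. Both means of Epcam were close to the low-value limit of 3.38. That of WT lay below it, so the gene passed the filter only through its TrxR1/Gsr-null values. The part of these cells in the chaperone results was not tested.

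For each called gene the 3 genes with the closest pattern were found by the root mean square difference of values centred on the mean of the 8 arrays. This is a description over 8 arrays that share the contrast of genotypes, so a gene with a like difference is close for that reason alone. Hsph1 was closest to Cbr1, a carbonyl reductase (0.188 log2 units), then to the serine protease gene Tmprss2 (0.339) and Blvrb, a biliverdin reductase (0.366). Hsp90aa1 was closest to the nucleotide sugar transporter gene Slc35d1 (0.115), the gene of the cell junction protein periplakin, Ppl (0.158), and Gclc, the catalytic subunit of glutamate-cysteine ligase (0.167). Dnaja1 was closest to Rnf11, Smap1 and Hax1 (0.108, 0.112 and 0.119), and Hspb1 to Amn, Fgfbp1 and Slc6a9 (0.558, 0.562 and 0.600). All WT values of Amn (1.69 to 2.18) and Fgfbp1 (2.33 to 3.31) lay below the low-value limit of 3.38. Both passed the filter only through their TrxR1/Gsr-null values.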

How the data were processed

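Each of 8 arrays measured the RNA of 1 liver, 4 per genotype. The authors deposited 1 value per probe set and array, made with GCRMA per the submitters' processing notes (its version is not given in the sources used here). That these deposited values, 0.53 to 14.6, are on a log2 scale was read from their range. GCRMA usually corrects background by probe sequence and quantile-normalizes, which draws values near background together. Array medians were 3.56 to 3.78 and interquartile ranges 3.74 to 4.44, so the deposited values of the arrays did not share a common distribution. No array repeated another (highest correlation 0.989).

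Of 22690 probe sets, 64 were controls, 20380 had 1 gene symbol, 691 several and 1555 none; 20351 identifiers matched RefSeq names (GRCm38.p6). Each gene took its brightest single-symbol probe set, those ending in _x_at set aside where another existed (12393 genes). Genes in the lowest 40% by mean (log2 value up to 3.38) were dropped, save 98 that exceeded this in at least 4 arrays, and 7534 were tested. The test was limma 3.58.1 under R 4.3.3 (lmFit, eBayes, two-sided, no covariates, Benjamini-Hochberg). All probe sets of the 10 genes were also fitted among 22626 without the filter. The fit was checked on simulated data.

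The genes and lists were chosen with earlier results of these data known. The text names the 10 genes, Txnrd1 and Gsr, every called gene of a chaperone list or else its first 2 that passed the filter, and 3 close patterns per called gene. Hspa1b, Hspa1a, Stip1, Ahsa1, Dnaja2, Dnajb4, St13, Cct6a, Vbp1, Epcam, Sox9, Jun, Junb, Zfp36, Egr1 and Atf3 were added after their values were seen. Same-numbered arrays deviated together from their group means (correlations 0.21, 0.37, 0.23 and 0.31, all above 0.1). For 5 of 8 arrays the best partner had the same number. No label pairs the animals, and the main fit was unpaired. A pairing by number was assumed only for the replicate block and the sign flips. The labels do not say what the numbers share. Alternatives were the filter, the probe set, scaling, blocks, limma settings and left-out arrays.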

Additional observations from a re-analysis of the deposited data

Results flagged for a closer look

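For 47 named genes in both groups (94 sets of 4 arrays) the highest or lowest array was compared with the others by Dixon's ratio. Of these sets 7 passed its 95% critical value, which chance gives in about 1 in 20 sets. The 7 cannot be held against that rate, since Hspa1b, Jun, Stip1 and Ahsa1 were added after their values were seen. Of the 7 sets, 2 were at TrxR1/Gsr-null replicate 4, with Hspa1b at 11.95 against 8.67 to 9.01 in the other mutant livers and Jun at 7.45 against 4.84 to 5.08. In TrxR1/Gsr-null replicate 1 the Hsp90 cochaperones Stip1 and Ahsa1 were low, at 6.21 against 6.90 to 6.96 and at 8.26 against 8.99 to 9.12. Among WT livers, Hax1 was high in replicate 1 (9.48 against 9.31 to 9.33), Gsr was low in replicate 1 (7.03 against 7.20 to 7.21), and Txnrd1 was low in replicate 4 (9.56 against 9.88 to 9.93). None of the 8 chaperone genes with a probe set passed this value in either group.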

How the results depend on the processing

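Counts below are of genes called higher, then lower. The 8 genes gave 4 and 0, the 72 other chaperone genes 4 and 0, and all 7534 genes 337 and 162. With each array left out the 8 genes gave 2 to 4 and 0 to 0 (2 without WT replicate 3 or WT replicate 4), the other chaperones 2 to 4 and 0 to 0, and all genes 196 to 387 and 75 to 134. The 8 genes gave 2 higher with WT replicates 3 and 4 both left out, where Hspb1 and Dnaja1 were lost (adjusted p = 0.117 and 0.0817), as was Hspa4l among the others (adjusted p = 0.129), 2 within replicates 3 and 4, and 2 of 6 with multi-transcript probe sets (_x_at, _s_at, _a_at) set aside, where Hsph1 and Hspb1 had no probe set. With the replicate block the 8 genes gave 4 and 0, with no call changed among them, the other chaperones 6 and 0, and all genes 454 and 240. The other chaperones gave 8 and 1 with array weights, 11 higher with replicates 1 and 2 against 3 and 4 as a block, 1 higher within replicates 3 and 4, and 1 lower with quantile normalization and with WT replicates 3 and 4 left out. All genes gave 578 and 428 with array weights, 647 and 334 with that block, 272 lower with quantile normalization, 187 higher with WT replicates 3 and 4 left out, 162 and 30 within replicates 3 and 4, and 511 higher with each probe set tested on its own. The fits within replicates 1 and 2 and within 3 and 4 were added after the data were seen. Hspb1 was 3.85-fold higher within replicates 1 and 2 (adjusted p = 0.0326) and 13.2-fold within replicates 3 and 4 (adjusted p = 0.0786), and Hsp90aa1 5.17-fold with multi-transcript probe sets set aside. The difference turned its sign for Hspa8 with multi-transcript probe sets set aside (-0.017), for Hspd1 with arrays centred on their median (-0.021) and for Dnajb1 within replicates 1 and 2 (-0.13), none of them called. Quantile normalization moved the median of all genes by -0.11 and leaving out WT replicates 3 and 4 by -0.13; Hsph1 and Hsp90aa1 stayed called under both. The cause of these changes was not tested.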
